A study of Mus musculus with 14 samples.

Results

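The proteins described here are the nuclear-encoded subunits of respiratory chain complexes I to IV. Genes were taken by symbol from the protein-coding genes of the table: Ndufa, Ndufb, Ndufc, Ndufs or Ndufv followed by digits, Ndufab1, Sdha to Sdhd, every Uqcr symbol, Cyc1, and Cox4i to Cox8 with any ending. Pseudogenes and the Ndufaf assembly factors were not taken. The rule, which uses no measured value, gave 68 of 46517 measured genes (21547 of them protein-coding): 37 of complex I, 4 of complex II, 9 of complex III and 18 of complex IV. They were measured by RNA-seq in 14 lung tumours from mouse models of SCLC (small cell lung cancer), which arises largely from neuroendocrine cells. Every mouse had floxed Rb1 and Trp53 alleles, which were recombined by adenoviral Cre under the Cgrp promoter, a promoter of neuroendocrine cells. The 11 RPM tumours also carried the Cre-activated allele Myc (T58A) with IRES-Luc, as LSL/LSL in 9 tumours and as LSL/+ in replicates 2 and 4. The 3 RPR2 tumours carried P130 fl/fl, floxed Rbl2, in place of the Myc allele. Tumours were untreated and were cut out of the lung by eye, so that normal lung and stroma were not removed by a sort, and the sources used here do not give the ages of the mice. In such bulk tissue fewer cells of a type and less RNA per cell cannot be told apart.

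The respiratory chain moves electrons from NADH and succinate to oxygen and pumps protons across the inner mitochondrial membrane. Complex I takes electrons from NADH and complex II, which is also an enzyme of the citric acid cycle, takes them from succinate. Both pass them through ubiquinone to complex III, which reduces cytochrome c, and complex IV (cytochrome c oxidase) uses cytochrome c to reduce oxygen to water. The catalytic centres of complexes I, III and IV include subunits encoded by mitochondrial DNA, whereas complex II is wholly nuclear-encoded. Several subunits of complex IV exist as a widely expressed isoform and a tissue-restricted isoform of heart and skeletal muscle, testis or lung. MYC, the product of the gene activated in RPM, is known as a regulator of genes for mitochondrial biogenesis.

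Values are FPKM, read fragments per kilobase of transcript scaled to the mapped reads of the library, so levels of different genes are given per length. Total FPKM ranged from 599119 to 939971 in the RPM libraries (median 714239) and was 523529, 545461 and 825292 in RPR2 replicates 1 to 3. RPR2 replicate 3 stood apart from the other RPR2 tumours. Summed FPKM of 8 neuroendocrine markers was 65.7 in that library, against 2853 and 3925 in the other RPR2 libraries and 279 to 1557 in RPM. Summed FPKM of 6 alveolar type 2 cell markers was 50083 in it, against 1810 and 2314, and 147 to 1385 in RPM. Counts of called genes are therefore also given without RPR2 replicate 3. Because total FPKM differed between libraries, each library was also rescaled to the same total, which gives TPM, a transcript's share of the library, and counts of called genes are also given on that scale.

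Respiratory chain subunit transcripts made up a larger part of the total FPKM in every RPM tumour than in any RPR2 tumour. Together the 68 genes took 1.62% to 2.87% of total FPKM in the RPM tumours (median 1.86%) and 1.28%, 1.204% and 1.30% in the RPR2 tumours. This share does not depend on how a library was scaled, and RPR2 replicate 3 lay beside the other RPR2 tumours. Complex I took 0.704% to 1.19% in RPM and 0.575%, 0.550% and 0.611% in RPR2. Complex III took 0.286% to 0.491% in RPM and 0.247%, 0.223% and 0.222% in RPR2. Complex IV took 0.565% to 1.12% in RPM and 0.390%, 0.377% and 0.424% in RPR2. For each of these 3 complexes the groups did not overlap. Complex II took 0.0591% to 0.0852% in RPM and 0.0652%, 0.0544% and 0.0390% in RPR2, and here RPR2 replicate 1 lay within the RPM range.

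**Figure D1:**
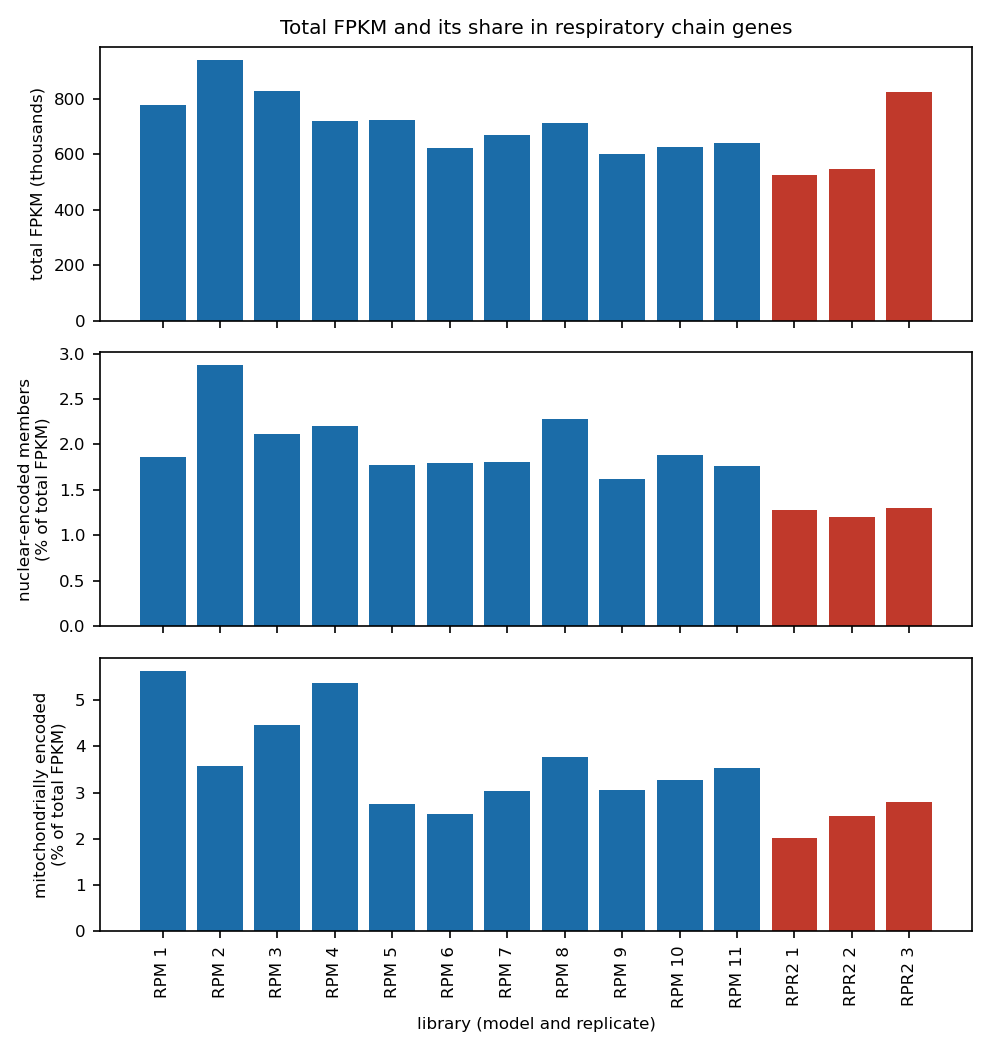
Bars give, for each of the 14 libraries, total FPKM (top), the percent of total FPKM in the 68 nuclear-encoded subunit genes (middle) and in the mitochondrially encoded subunit genes (bottom), with RPM in blue and RPR2 in red. All 11 RPM tumours lie at or above 1.62% in the middle panel and the 3 RPR2 tumours at or below 1.30%, while total FPKM of RPR2 replicate 3 lies among the RPM tumours.

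Of the 68 genes, 66 passed the filter on low values (3 or more libraries with an FPKM of 1 or more) and were tested between RPM and RPR2 with limma on log2(FPKM + 1). At a Benjamini-Hochberg adjusted p below 0.05, 43 of the 66 were higher in RPM and 0 were lower. Among all 15719 genes tested, 18.4% were called higher and 22.8% lower. By complex, 23 of 37 genes of complex I, 3 of 4 of complex II, 6 of 9 of complex III and 11 of 16 tested genes of complex IV were higher. The median difference in log2(FPKM + 1) was 0.74 over the tested subunit genes and -0.06 over all genes tested. At an unadjusted p below 0.05 the limma count in both directions was 46, beside 49.2% of all genes tested. The exact Wilcoxon rank test, adjusted over all genes, called 29 higher and 0 lower, beside 13.8% and 16.4%. The 2 genes that failed the filter were Cox7b2, at most 0.29 FPKM in any library, and Cox8c, which was listed at 0 in all 14.

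As FPKM, the RPR2 tumours were not alike for these genes. Over the 62 genes with a mean FPKM of at least 10, the median log2 difference from the RPM mean was taken per library. It was -0.89, -0.98 and -0.36 as FPKM in RPR2 replicates 1 to 3. As TPM it was -0.47, -0.61 and -0.58, so RPR2 replicate 3 lay with the others on that scale. The placements below are on FPKM. RPR2 replicates 1 and 2 both lay below every RPM tumour for 53 of the 66 genes, as they did for 16.2% of all genes tested. RPR2 replicate 3 lay below every RPM tumour for 27 of the 66, within the RPM range for 36 and above it for 3, against 35.1%, 41.6% and 23.3% of all genes tested. For 23 of the 66 genes no RPR2 tumour reached the lowest RPM tumour, against 11.1% of all genes tested, and no gene of the 66 had all RPM tumours lower, against 13.6%. Without RPR2 replicate 3, limma called 49 higher and 1 lower (Cox6b2), beside 16.2% and 28.5% of all genes. Of the 43 genes called with all libraries, 40 were among those 49, and the median difference was 0.90. Without RPR2 replicate 1 the count was 22 higher and 0 lower, beside 15.9% and 17.8% of all genes, and without RPR2 replicate 2 it was 18 and 0, beside 14.7% and 16.8%. In complex I the higher genes were then 9 and 8 of 37. The number of calls thus depended on which RPR2 tumours were in the fit. The median differences over the 66 genes were 0.69 without RPR2 replicate 1 and 0.67 without RPR2 replicate 2.

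On the TPM scale 35 of the 66 genes were higher and 1 was lower (Cox7a1), beside 11.9% and 22.8% of all genes tested. All 35 were also called on the FPKM scale. The 8 genes called on the FPKM scale alone were Cox8a, Ndufa1, Ndufa10, Ndufs1, Ndufs6, Sdha, Uqcrc2 and Uqcrfs1. TPM scaling moved the median difference of all genes from -0.06 to -0.23 and that of the subunit genes from 0.74 to 0.55. The groups did not overlap for 26 of the 66 genes as TPM with RPM higher, against 7.23% of all genes tested. With TPM scaling and RPR2 replicate 3 left out, 37 were higher and 1 was lower, beside 9.54% and 37.4% of all genes.

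**Figure D2:**
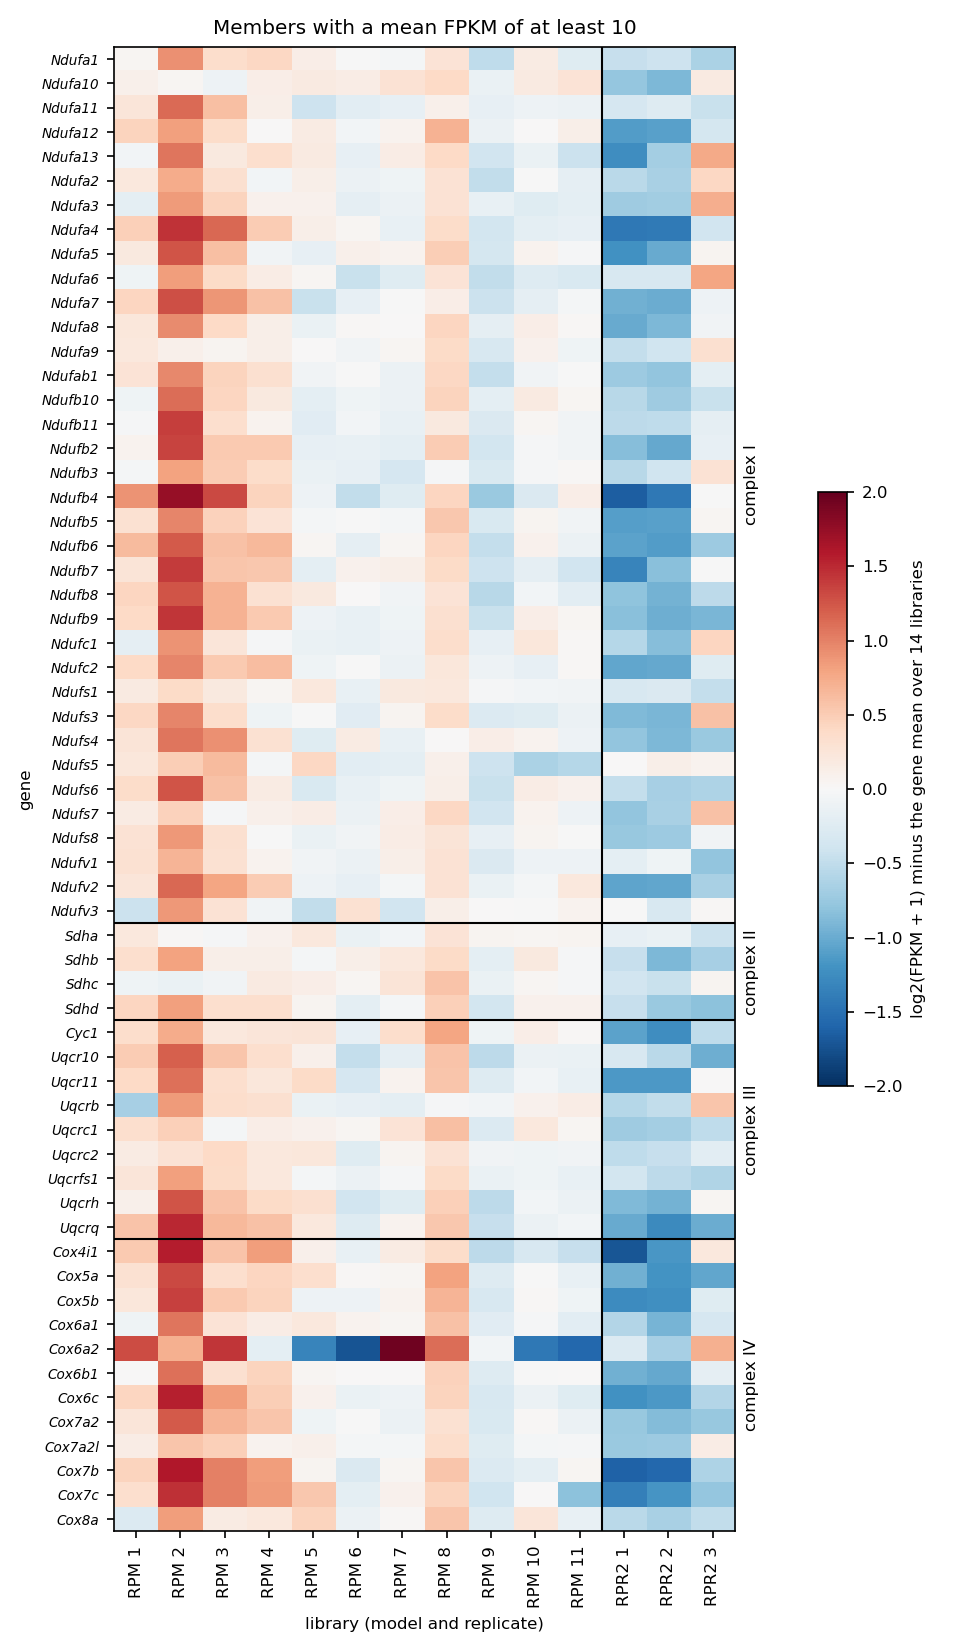
Each cell gives log2(FPKM + 1) of 1 gene in 1 library minus that gene's mean over the 14 libraries, for genes with a mean FPKM of at least 10, ordered by complex; the vertical line divides RPM from RPR2. RPM replicate 2 is red for nearly every gene, RPR2 replicates 1 and 2 are blue for nearly every gene, and RPR2 replicate 3 is mixed.

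Upstream sequences are shown for 5 genes. Cox7b had the largest difference of the subunit genes. Cox6a1 and Uqcr11 are among the genes that hold a searched motif upstream of the start. The isoform pair Cox7a1 and Cox7a2 had differences of opposite sign. The sequences are the 250 bases before the RefSeq transcript start on GRCm38.p6, 5′ to 3′ on the gene's strand, with motif matches in capitals. Their positions are chrX:106015450-106015699 (plus strand) for Cox7b, chr5:115348959-115349208 (minus) for Cox6a1, chr10:80406822-80407071 (minus) for Uqcr11, chr7:30183921-30184170 (plus) for Cox7a1 and chr9:79759854-79760103 (minus) for Cox7a2.
Cox7b: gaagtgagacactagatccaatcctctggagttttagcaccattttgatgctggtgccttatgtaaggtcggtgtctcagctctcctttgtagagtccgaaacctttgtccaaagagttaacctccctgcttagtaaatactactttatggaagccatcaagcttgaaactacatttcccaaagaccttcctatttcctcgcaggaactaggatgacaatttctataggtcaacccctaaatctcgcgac
Cox6a1: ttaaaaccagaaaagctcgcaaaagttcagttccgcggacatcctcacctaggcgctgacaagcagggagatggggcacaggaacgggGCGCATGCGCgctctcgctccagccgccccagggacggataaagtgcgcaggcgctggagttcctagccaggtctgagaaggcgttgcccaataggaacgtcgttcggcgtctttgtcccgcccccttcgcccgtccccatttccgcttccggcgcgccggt
Uqcr11: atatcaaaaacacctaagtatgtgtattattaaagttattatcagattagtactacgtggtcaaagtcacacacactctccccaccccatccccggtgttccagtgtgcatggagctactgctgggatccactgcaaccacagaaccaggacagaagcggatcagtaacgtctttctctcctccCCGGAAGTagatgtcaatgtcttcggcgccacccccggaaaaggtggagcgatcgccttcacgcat
Cox7a1: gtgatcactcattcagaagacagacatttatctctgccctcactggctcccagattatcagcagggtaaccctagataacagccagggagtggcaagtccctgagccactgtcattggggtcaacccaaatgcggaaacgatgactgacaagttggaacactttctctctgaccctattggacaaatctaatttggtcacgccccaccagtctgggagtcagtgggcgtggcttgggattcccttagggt
Cox7a2: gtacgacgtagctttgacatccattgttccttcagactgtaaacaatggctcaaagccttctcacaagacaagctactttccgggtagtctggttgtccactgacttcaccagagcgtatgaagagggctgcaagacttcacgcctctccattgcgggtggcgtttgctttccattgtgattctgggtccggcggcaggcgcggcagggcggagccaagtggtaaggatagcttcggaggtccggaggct
The capitals mark an NRF1 site that begins 162 bases before the start of Cox6a1, and an ETS site, CCGGAAGT, that begins 66 bases before the start of Uqcr11. RefSeq windows of 300 bases (250 before to 50 after the start) were matched for 54 of the 68 genes and searched on both strands for 4 motifs. The E-box CACGTG, bound by MYC with MAX, was in 2 of the 54 windows (3.70%) and in 8.09% of the windows of 16521 genes. The NRF1 site was in 3 (5.56%, against 1.38%), the ETS site in 4 (7.41%, against 5.54%) and the YY1 site AAGATGGCG in 5 (9.26%, against 2.03%). The 5 windows with a YY1 match all belonged to complex I, which supplied 33 of the 54 windows. Complexes II, III and IV supplied 3, 5 and 13. Among the 35 windows of genes higher in RPM, 1 held an E-box (2.86%), as did 1 of 19 windows of genes that were not called (5.26%). The YY1 site was in 2 of those 35 windows (5.71%) and in 3 of those 19 (15.8%). These are letter matches in short windows and not measured binding.

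Within complex I, genes of the NADH-oxidising arm, the membrane arm and the accessory subunits were among those higher in RPM. The largest difference was that of Ndufa4 (chr6:11900292-11907497), whose protein was first assigned to complex I and is now known as a subunit that associates with cytochrome c oxidase. Ndufa4 ranged from 413 to 1466 FPKM in RPM (median 580.1) and was 197, 199.6 and 412 in RPR2. RPR2 replicate 3 lay just below the lowest RPM tumour, and the difference was 1.37 ± 0.36 (SE, limma adjusted p = 0.00689). Ndufa12 (chr10:94198720-94221443), an accessory subunit, had the smallest p of the complex. It ranged from 156 to 299 FPKM in RPM (median 182), was 77.2, 79.0 and 131 in RPR2, and differed by 1.08 ± 0.22 (limma adjusted p = 0.00109). Ndufv2 (chr17:66078638-66101559), an iron-sulfur subunit that helps take electrons from NADH, ranged from 130.4 to 327 in RPM (median 170.2) and was 70.3, 71.1 and 93.0 in RPR2. Its difference was 1.16 ± 0.25 (limma adjusted p = 0.0018), and the groups did not overlap. Ndufs4 (chr13:114287795-114388258), an accessory subunit whose loss in mice causes a Leigh-like encephalopathy, ranged from 46.35 to 116 in RPM (median 60.5) and was 31.4, 29.05 and 32.4 in RPR2. Here all 3 RPR2 tumours were close together and below RPM, with a difference of 1.03 ± 0.24 (limma adjusted p = 0.00321).

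The membrane-arm subunits Ndufb6, Ndufb9 and Ndufc2 also had no overlap between the groups. Their differences were 1.23 ± 0.28 for Ndufb6, 1.16 ± 0.29 for Ndufb9 and 0.98 ± 0.25 for Ndufc2 (limma adjusted p of 0.0026, 0.00502 and 0.00522). Ndufa8, a subunit that stabilises the membrane arm, was 96.9 to 212 FPKM in RPM (median 118.9), 54.0, 58.8 and 105 in RPR2, and differed by 0.84 ± 0.23 (limma adjusted p = 0.00825). RPR2 replicate 3 lay within the RPM range, and the call was lost without RPR2 replicate 1 or 2 (limma adjusted p of 0.0642 and 0.055). At the other end, Ndufs5, an accessory subunit on the intermembrane-space side, was 59.8 to 145.55 in RPM (median 90.8) and 93.7, 101 and 98.4 in RPR2. All 3 RPR2 values lay inside the RPM range, and the difference was -0.08 ± 0.25 (limma adjusted p = 0.811). Ndufb3, an accessory subunit of the membrane arm, was 65.3 to 144 in RPM (median 80.9) and 55.9, 62.5 and 101 in RPR2, a difference of 0.28 ± 0.23 (limma adjusted p = 0.358).

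**Figure D3:**
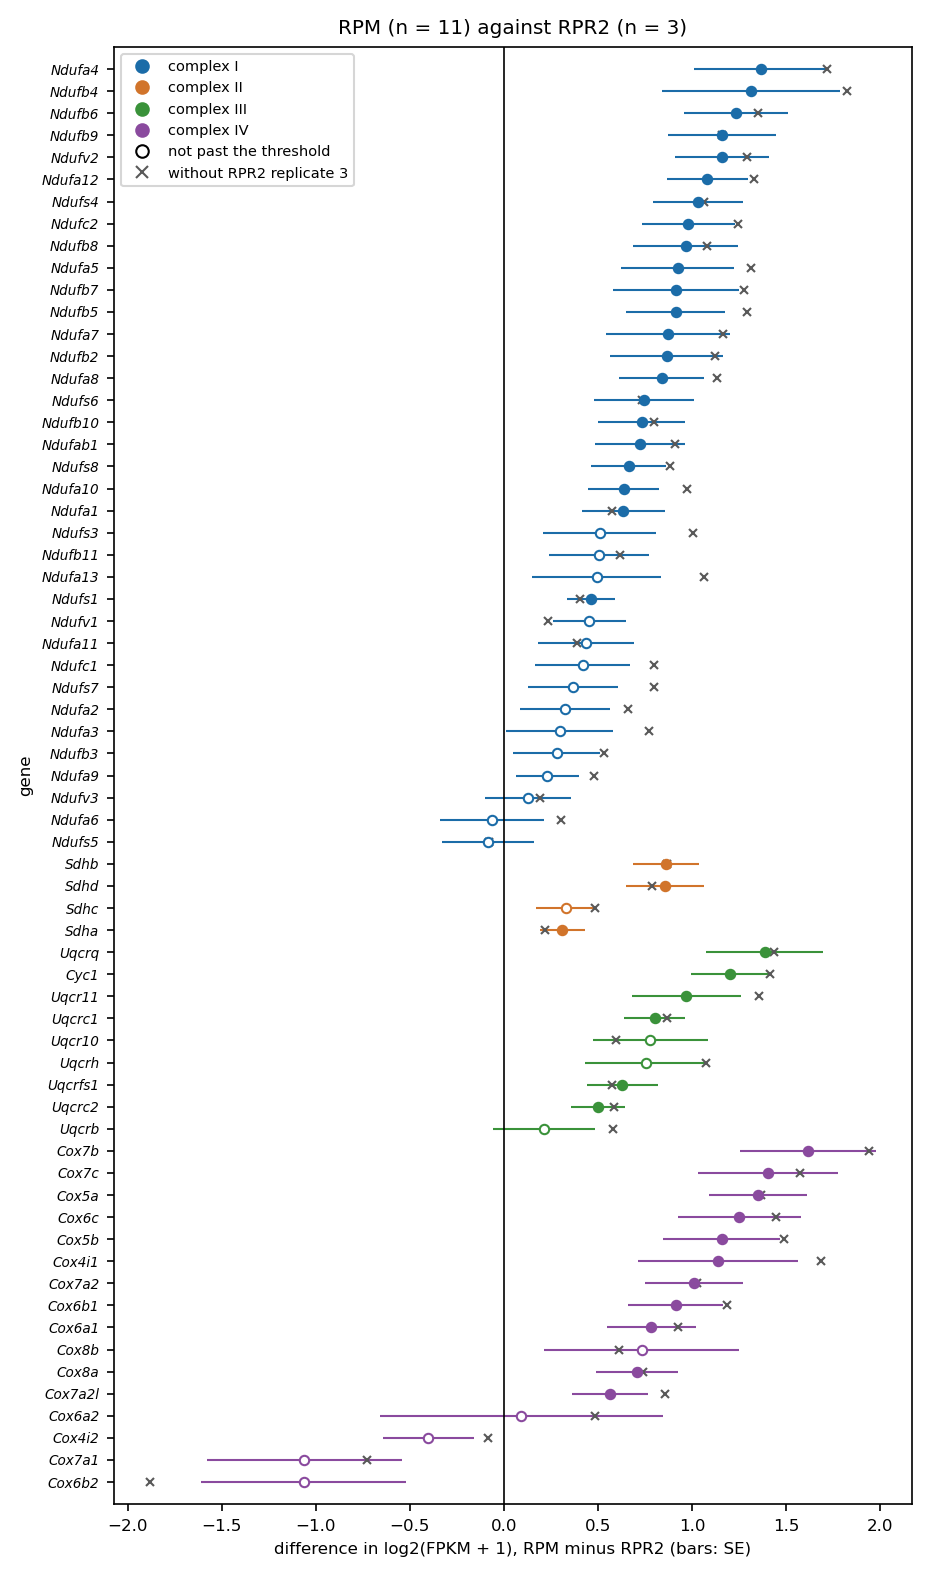
Points give the difference in log2(FPKM + 1), RPM minus RPR2, for tested genes, with SE bars, coloured by complex; filled points passed an adjusted p of 0.05 and crosses show the difference without RPR2 replicate 3. Most points lie to the right of 0, from -1.06 for Cox6b2 and Cox7a1 to 1.61 for Cox7b.

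In complex II the differences were largest for the iron-sulfur subunit Sdhb and the membrane anchor Sdhd. Sdhb (chr4:140961203-140979193) ranged from 109.52 to 221 FPKM in RPM (median 137) and was 90.9, 66.8 and 78.5 in RPR2. Sdhd (chr9:50596357-50603812) ranged from 111 to 257 in RPM (median 153) and was 104.74, 85.5 and 81.4 in RPR2. Neither gene overlapped between the groups, and both differed by 0.86, with an SE of 0.18 for Sdhb and 0.21 for Sdhd (limma adjusted p = 0.00125 and 0.00413). On the TPM scale without RPR2 replicate 3, Sdhd differed by 0.38 and did not pass (limma adjusted p = 0.0761). The flavoprotein subunit Sdha, which oxidises succinate, varied least: it was 70.1 to 92.9 in RPM (median 79.5) and 68.1, 69.8 and 56.7 in RPR2. Its difference was 0.31 ± 0.12 (limma adjusted p = 0.0447), which did not pass on the TPM scale (0.12, limma adjusted p = 0.692) or without RPR2 replicate 3 (0.22, limma adjusted p = 0.167). Of the 14 libraries, the call of Sdha held only when the one left out was RPM replicate 2, 6 or 7. The second membrane anchor, Sdhc, differed by 0.33 ± 0.16 (limma adjusted p = 0.107).

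In complex III the largest difference was that of Uqcrq (chr11:53427922-53430831), a small ubiquinone-binding subunit. It ranged from 227 to 886 FPKM in RPM (median 361) and was 155, 128 and 156 in RPR2, a difference of 1.39 ± 0.31 (limma adjusted p = 0.00259). Cyc1 (chr15:76343523-76346260), the cytochrome c1 subunit that hands electrons to cytochrome c, had the smallest p of all 66 genes. It ranged from 135 to 264 in RPM (median 179) and was 72.0, 63.3 and 106 in RPR2, and it differed by 1.1997 ± 0.21 (limma adjusted p = 0.000346). For both genes every RPR2 tumour lay below every RPM tumour. The core subunit Uqcrc1 (chr9:108936633-108949623) was 104 to 194 in RPM (median 139) and 77.2, 79.1 and 89.45 in RPR2, without overlap, and differed by 0.80 ± 0.16 (limma adjusted p = 0.00117). The second core subunit, Uqcrc2, and the Rieske iron-sulfur protein Uqcrfs1 differed by 0.50 ± 0.15 and 0.63 ± 0.19 (limma adjusted p of 0.0128 and 0.0145), and neither passed on the TPM scale (limma adjusted p of 0.0856 and 0.0601). Uqcr11, a small subunit whose upstream sequence is given above, was 237 to 642 in RPM (median 347) and 134, 134 and 299 in RPR2, with RPR2 replicate 3 inside the RPM range. It differed by 0.97 ± 0.29 (limma adjusted p = 0.0148). The calls of Uqcr11 and Uqcrc2 were lost without RPR2 replicate 1 or 2, and that of Uqcrfs1 without RPR2 replicate 2 (limma adjusted p of 0.054 to 0.0985). Uqcrb, another ubiquinone-binding subunit, was 137 to 395 in RPM (median 215), 147, 156 and 322 in RPR2, and differed by 0.22 ± 0.27 (limma adjusted p = 0.558).

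Complex IV held the largest difference of all. Cox7b (chrX:106015700-106022450), a small nuclear-encoded subunit, ranged from 276 to 1017 FPKM in RPM (median 349) and was 108, 112 and 218 in RPR2. No RPR2 tumour reached the lowest RPM tumour, and the difference was 1.61 ± 0.36 (limma adjusted p = 0.00252). Cox5a (chr9:57521274-57532426), a subunit on the matrix side, ranged from 196 to 588 in RPM (median 292) and was 120.7, 102 and 114 in RPR2, with a difference of 1.35 ± 0.26 (limma adjusted p = 0.00086). Cox6c (chr15:35925886-35938246) ranged from 346 to 1268 in RPM (median 461) and was 187, 195 and 286 in RPR2, with a difference of 1.25 ± 0.33 (limma adjusted p = 0.00687). These 3 genes had no overlap between the groups, and all 3 were also higher on the TPM scale and without RPR2 replicate 3. Cox5b, the zinc-binding subunit, was 404 to 1309 in RPM (median 528) and 211, 215 and 426 in RPR2, a difference of 1.16 ± 0.31 (limma adjusted p = 0.00808) with RPR2 replicate 3 inside the RPM range. Cox4i1 (chr8:120668222-120674207), the main isoform of the largest nuclear-encoded subunit, was 544 to 2344 in RPM (median 879) and 238, 348 and 907 in RPR2. It differed by 1.14 ± 0.43 (limma adjusted p = 0.044), and its adjusted p was 0.00591 without RPR2 replicate 3 and 0.261 without RPR2 replicate 1. That call was also lost without RPR2 replicate 2 or any 1 of RPM replicates 1, 3, 4, 5, 7 and 8 (limma adjusted p of 0.0516 to 0.157). It was lost as well with median-of-ratios scaling, without the filter on low values and with the LSL/LSL tumours as the only RPM tumours (limma adjusted p of 0.0691, 0.0777 and 0.0583). Without RPR2 replicate 1 or 2 the calls of Cox5b and Cox6b1 were lost too, as were those of Cox6a1 and Cox8a without RPR2 replicate 2 (limma adjusted p of 0.0533 to 0.103). Cox7a2l, a factor that joins complexes III and IV into supercomplexes, differed by 0.56 ± 0.20 (limma adjusted p = 0.0359).

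The tissue-restricted isoforms of complex IV had far lower FPKM than their widely expressed partners. Cox7a1 (chr7:30184144-30186078), the heart and muscle isoform of subunit 7a, was 0.65 to 9.32 FPKM in RPM (median 1.83) and 5.29, 4.01 and 10.2 in RPR2. Its partner Cox7a2 (chr9:79755361-79759878) was 243 to 708 in RPM (median 305) and 178, 164 and 177 in RPR2. The log2 ratio of Cox7a1 to Cox7a2, each taken as FPKM + 1, was -6.70 ± 0.72 (SD, n = 11) in RPM and -4.62 ± 0.55 (SD, n = 3) in RPR2. It was lower in every RPM tumour than in every RPR2 tumour, a difference of -2.07. The two-sided exact permutation p was 0.00275, the smallest value possible with 11 and 3 libraries, and 0.0082 when adjusted (Benjamini-Hochberg) over the 6 pairs tested. Cox4i2 (chr2:152754173-152765037), an isoform expressed in lung and linked to low oxygen, was 3.07 to 6.98 in RPM (median 4.90) and 4.53, 6.29 and 11.3 in RPR2. Its log2 ratio to Cox4i1 was -7.28 ± 0.57 (SD, n = 11) and -5.74 ± 0.41 (SD, n = 3), again with every RPM tumour lower, a difference of -1.54 (two-sided exact permutation p = 0.00275, adjusted 0.0082).

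Cox6b2, the testis isoform of subunit 6b, was 1.97 to 16.55 FPKM in RPM (median 5.84) and 25.0, 25.8 and 3.83 in RPR2, so the RPR2 tumours fell on both sides of the RPM median. Its log2 ratio to Cox6b1 was lower by 1.98 in RPM (difference -1.98, two-sided exact permutation p = 0.022, adjusted 0.044), a call that was lost without RPR2 replicate 1 (exact permutation, adjusted p = 0.288) or 2 (0.308) and without any 1 of RPM replicates 1, 3, 4, 6, 8 and 10 (0.0559 to 0.0699). The other 3 pairs did not pass. The difference was -0.69 for Cox6a2 to Cox6a1 (two-sided exact permutation, adjusted p = 0.465), 0.02 for Cox8b to Cox8a (adjusted p = 0.945) and 0.57 for Ndufa4l2 to Ndufa4 (adjusted p = 0.342). Ndufa4l2, a paralogue of Ndufa4 that is outside the rule, had FPKM of 8.03 to 36.8 in RPM and 3.95, 3.44 and 3.90 in RPR2. Cox6a2, a heart and muscle isoform, varied most among the RPM tumours of the genes with a mean FPKM of at least 10, from 1.76 to 34.1 (SD of log2(FPKM + 1) 1.36, against 0.12 to 0.94 for the other tested genes). Taken as single genes, none of the tissue-restricted isoforms passed limma on the FPKM scale with all libraries weighted equally. Cox7a1 and Cox6b2 then differed by -1.06 each (limma adjusted p of 0.115 and 0.133). Cox7a1 passed on the TPM scale (-1.34, limma adjusted p = 0.0468). With libraries weighted by their estimated quality Cox4i2, Cox6b2 and Cox7a1 passed, each lower in RPM (limma adjusted p of 0.0483, 6.68e-05 and 0.02). That weighted fit called 27.3% of all genes tested higher and 41.8% lower, and 56 of the 66 subunit genes higher. Cox6b2 passed without RPR2 replicate 3 (-1.88, limma adjusted p = 0.00912) and Cox7a1 without RPM replicate 2 (-1.22, limma adjusted p = 0.0435).

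**Figure D4:**
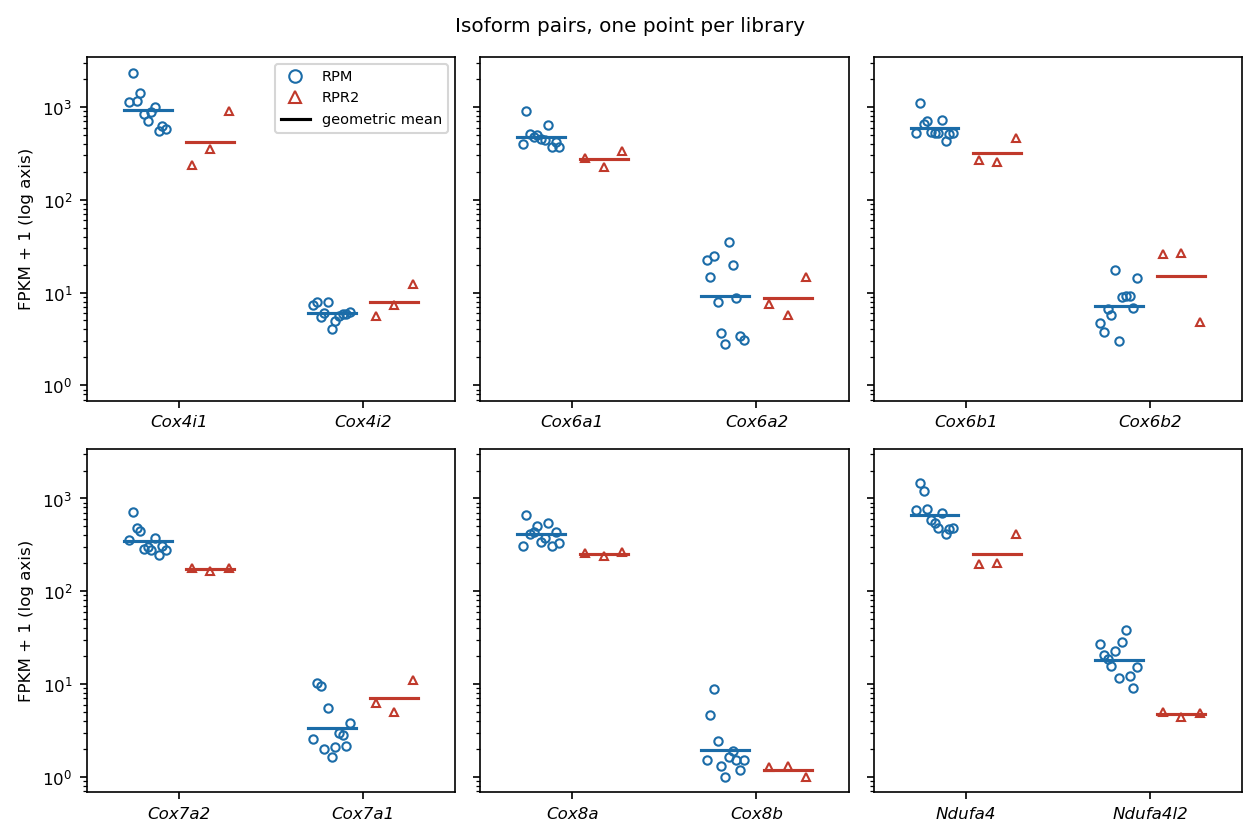
Points give FPKM + 1 on a log axis for 6 isoform pairs in the 11 RPM (circles) and 3 RPR2 (triangles) libraries, with the geometric mean of each group as a line. The widely expressed isoform has the higher mean in RPM in each panel, while Cox4i2, Cox7a1 and Cox6b2 have a higher mean in RPR2.

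Muscle and fat marker sums were highest in the libraries with the most Cox8b, but did not follow every heart and muscle isoform. Cox8b, a heart and muscle isoform, was 3.69 FPKM in RPM replicate 2 and 7.94 in RPM replicate 3, and at most 1.46 in the other 12 libraries. Cox7a1 was 9.32 and 8.53 in those same libraries. They were also the highest for 10 summed cardiac and skeletal muscle markers (334 and 395 FPKM, against 8.90 to 109.8 in the other RPM tumours and 22.3, 39.5 and 26.1 in RPR2) and for 6 summed adipocyte markers (208 and 235, against 24.4 to 61.0, and 9.78, 12.7 and 26.1). Fabp4 alone gave 202 and 225 of these adipocyte sums. Cox7a1, however, was highest in RPR2 replicate 3 (10.2), where the muscle sum was 26.1. Cox6a2 was highest in RPM replicate 7 (34.1), where the muscle sum was 64.3, and was 13.9 and 23.5 in RPM replicates 2 and 3. The marker counts that follow stand beside 18.4% of all genes tested called higher in RPM and 22.8% called lower. The muscle list had 1 of 9 tested genes higher in RPM and 0 lower, and the adipocyte list 1 of 2 and 0. Pericyte and smooth muscle markers, another list, had 5 of 8 genes higher in RPM, with summed FPKM of 177 to 370 in RPM and 57.0, 50.1 and 62.5 in RPR2. All 6 alveolar type 2 markers and 3 of 4 club cell markers were lower in RPM. No marker of these lists was at 0 in every library. The part of these other cell types in the differences between the models was not tested.

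Near-identical gene copies touched some of the values. A search for processed pseudogenes found 55 copies of 32 of the genes, of which 13 reached 1 FPKM in at least 1 library. Gm12338, a copy of Cox7c with 100% identity over the aligned bases, was listed at FPKM of 660 to 2311 in the RPM libraries and of 348, 304 and 534 in the RPR2 libraries. Cox7c itself was lower than its copy, at 75.0 to 370.1 in RPM (median 169) and 51.1, 58.6 and 78.1 in RPR2, and differed by 1.40 ± 0.37 (limma adjusted p = 0.00727). Ndufb4, a membrane-arm subunit, was 25.55 to 146 in RPM (median 47.2) and 13.0, 15.4 and 42.7 in RPR2 (difference 1.31 ± 0.47, limma adjusted p = 0.0368), and its copy Ndufb4c was listed at 113 to 474 in RPM and 92.4, 101 and 138 in RPR2. With each copy added to its gene, 41 of 66 genes were higher and 0 lower, beside 18.4% and 22.8% of all genes. Cox7c then differed by 1.30 (limma adjusted p = 0.00603) and Ndufb4 by 1.02 (limma adjusted p = 0.0375). With copies apart, Ndufb4 lost its call without RPR2 replicate 1 or 2 or RPM replicate 1, 4 or 8 (limma adjusted p of 0.0502 to 0.18), and also with median-of-ratios scaling, without the filter on low values and with the LSL/LSL tumours as the only RPM tumours (0.0534, 0.0644 and 0.0531). With its copy added, Ndufs5, the gene with the lowest difference in complex I, differed by 0.64 (limma adjusted p = 0.0708), and that copy, BC002163, was listed at 11.9 to 263 in RPM and 39.8, 31.3 and 21.9 in RPR2. Adding copies also moved genes named above. Ndufa12 then differed by 0.88 (limma adjusted p = 0.00227) and Cox6c by 1.06 (limma adjusted p = 0.0123). Gm6969, a copy of Cox7a2l with 97.7% identity, was listed at 0 to 67.0 in RPM and 46.1, 41.7 and 40.4 in RPR2. How reads shared by a gene and its copy were divided can change the values of Cox7c, Ndufb4, Ndufs5, Ndufa12, Cox6c and Cox7a2l. The same holds for other subunit genes with such copies.

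The RPM tumours varied among themselves, and the variation was shared by most subunits. Among the 62 genes with a mean FPKM of at least 10, RPM replicate 2 was the highest of the 11 RPM tumours for 53 and RPM replicate 9 the lowest for 39. These 2 libraries also had the highest and the lowest total FPKM of the group, 939971 and 599119. As TPM, RPM replicate 2 was the highest for 42 genes and RPM replicate 8 for 12, while RPM replicate 5 was the lowest for 16 and RPM replicate 9 for 13. The median FPKM of the abundant complex IV genes was 801 in RPM replicate 2 and 292 to 520.4 in the other RPM tumours. Besides Cox6a2, the genes of these 62 that varied most among RPM tumours were Ndufb4, Cox7c and Cox4i1, with SDs of log2(FPKM + 1) of 0.78, 0.66 and 0.63, and Sdha varied least, at 0.12.

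RPM replicate 2, the highest library, is 1 of the 2 tumours with a single Myc (T58A) allele, which bears on the comparison of LSL/LSL (n = 9) with LSL/+ (n = 2) tumours. No subunit gene passed limma at an adjusted p of 0.05 in either direction (0 of 66 higher and 0 lower), beside 0% and 0.00673% of the 14862 genes tested. The median difference, LSL/LSL minus LSL/+, was -0.56 over the subunit genes and 0.16 over all genes tested. At an unadjusted p below 0.05 limma counted 34 of the 66 genes, beside 17.3% of all genes tested, and the exact Wilcoxon rank test 5, beside 9.43%. Without RPM replicate 2 the median was -0.15 and the unadjusted limma count 0, beside 5.95%. Cox4i1 had the smallest p: it was 544 to 1172 FPKM in the LSL/LSL tumours and 2344 and 1408 in the LSL/+ tumours, above all 9, and differed by -1.18 ± 0.32 (limma adjusted p = 0.231). Ndufc2 was 169 to 273 in LSL/LSL and 372 and 291 in LSL/+, and differed by -0.72 ± 0.20 (limma adjusted p = 0.231).

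Other genes of oxidative phosphorylation were counted from lists chosen by function. ATP synthase, which uses the proton gradient to make ATP, had 12 of 15 genes higher in RPM and 0 lower, with a median difference of 0.85. Of all genes tested, 18.4% were higher and 22.8% lower. The count of higher ATP synthase genes was 14 without RPR2 replicate 3 and 10 on the TPM scale, beside 16.2% and 11.9% of all genes. Atp5g1, a gene for the proton-carrying c-ring, had FPKM of 219.6 to 560.0 in RPM and 72.5, 80.03 and 117 in RPR2, and differed by 1.89 ± 0.25 (limma adjusted p = 3.4e-05). Cycs, cytochrome c, was 19.4 to 39.1 in RPM and 11.6, 13.1 and 9.82 in RPR2, and differed by 1.10 ± 0.20 (limma adjusted p = 0.000454), while the testis form Cyct was at most 0.26. Of the 13 mitochondrially encoded genes, 2 were higher and 0 lower, with a median difference of 0.84, beside 18.4% and 22.8% of all genes tested. The count of higher genes depended on the libraries and the scaling. It was 7 without RPR2 replicate 3, 3 on the TPM scale and 0 with median-of-ratios scaling. The shares of all genes called higher were then 16.2%, 11.9% and 21.4%. Their summed share was 2.55% to 5.64% of total FPKM in RPM and 2.02%, 2.50% and 2.80% in RPR2, so the groups overlapped. The 2 called with all libraries were mt-Nd1 and mt-Nd2, subunits of complex I, which differed by 1.16 ± 0.44 and 0.85 ± 0.30 (limma adjusted p of 0.0463 and 0.0328).

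Assembly factors were mixed. The counts with all libraries stand beside 18.4% of all genes tested called higher and 22.8% called lower. For complex I, 9 of 17 were higher and 1 lower, with a median of 0.61. Ecsit, Tmem70 and Ndufaf4, all needed to build complex I, differed by 1.37 ± 0.16, 1.67 ± 0.22 and 1.52 ± 0.20, and none overlapped between the groups. For complex II, 0 of 4 passed limma in either direction (median -0.01), and the smallest unadjusted p was 0.0802. For complex III, 2 of 6 were higher and 0 lower (median 0.45), led by Uqcc2 at 1.36 ± 0.33 (limma adjusted p = 0.00418). For complex IV, 5 of 22 tested were higher, near the share over all genes, and 1 was lower (median 0.21). Sco2, a copper chaperone of complex IV, was 14.8 to 22.2 in RPM and 4.83, 5.13 and 9.95 in RPR2 and differed by 1.42 ± 0.19, and Cox10, which makes the haem A precursor, by 1.05 ± 0.20 (limma adjusted p of 4.2e-05 and 0.000806). Of 16 regulators of mitochondrial genes and mitochondrial DNA, 7 were higher and 2 lower (median 0.43). Twnk, the mitochondrial DNA helicase, was 15.6 to 26.6 in RPM and 10.85, 9.27 and 7.47 in RPR2 and differed by 1.11 ± 0.17, and Pprc1, a coactivator of the PGC-1 family, by 1.05 ± 0.25 (limma adjusted p of 0.000134 and 0.00358). Yy1, a transcription factor with known sites in respiratory genes, was 11.5 to 28.3 in RPM and 43.4, 37.2 and 46.4 in RPR2, lower in every RPM tumour (-0.89 ± 0.21, limma adjusted p = 0.00347). Without RPR2 replicate 3 the counts were 9 higher and 2 lower for complex I assembly, 0 and 0 for complex II, 2 and 0 for complex III, 6 and 1 for complex IV, and 6 and 2 for the regulators. On the TPM scale they were 7 and 1, 0 and 0, 1 and 0, 4 and 1, and 4 and 2 in the same order. Of all genes tested, 16.2% were higher and 28.5% lower without RPR2 replicate 3, and 11.9% and 22.8% on the TPM scale.

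**Figure D5:**
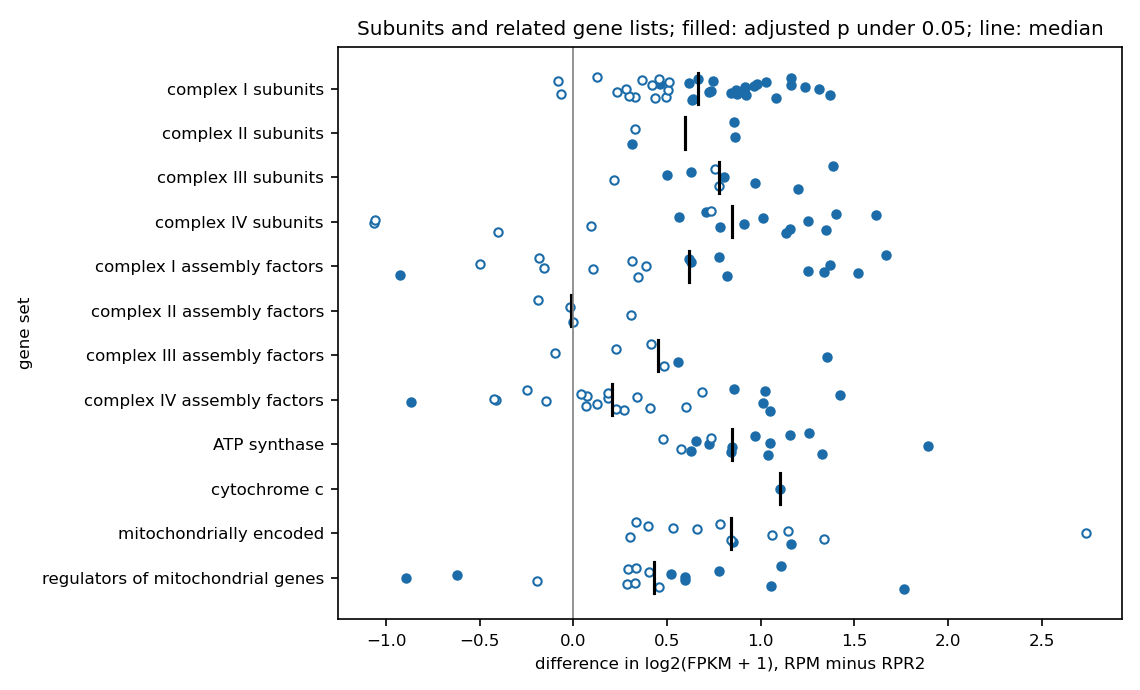
Each point is a tested gene's difference in log2(FPKM + 1), RPM minus RPR2, for the subunits of each complex and the related gene lists; filled points have an adjusted p below 0.05 and vertical bars mark medians. ATP synthase (median 0.85) lies near complex IV (0.85), and complex II assembly factors lie around 0.

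The subunit genes are short, which matters for a comparison in FPKM. Their median transcript length was 645 bases (360 to 2413), 54 of 68 were shorter than 1 kb, and the median of all tested protein-coding genes was 2171.5. Of 2434 other tested genes shorter than 1 kb, 23.5% were higher in RPM and 22.4% lower by limma, with a median difference of 0.08. Of 2465 genes of 4 kb and over, 12.7% were higher and 22.0% lower, with a median of -0.15. The median over the subunit genes was 0.74 on the same scale, and the part of transcript length in it was not tested.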

How the data were processed

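RNA-seq values of 14 mouse lung tumours (11 RPM, 3 RPR2) were taken from the single table that the authors deposited, which holds FPKM values per Ensembl gene identifier and library. RSEM (1.2.12), Bowtie (1.0.1) and mm10 are listed in the submitters' processing notes. The sources used here give no settings, annotation release or strand option. Per the labels' protocols, RNA came from fresh or frozen tumours, and stranded libraries with oligo-dT selection were sequenced from one end. The table gives no read counts, so no interval that needs the depth is given. A reporter entry listed at 0 in every library was left out. Groups came from the genotype labels and allele states from the source names, and columns were matched by title. The labels do not say whether tumours came from separate mice, and p-values measure the spread between these samples. RPM replicates 6 and 7 share a number in their titles, as do 10 and 11, and its meaning is not stated. A limma fit with that number as a random effect called 44 of the 66 subunit genes higher in RPM and 0 lower.

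Symbols (46005 of 46517 identifiers), biotypes and coordinates came from GENCODE M21 (GRCm38, the assembly of mm10). The tests used limma 3.58.1 (R 4.3.3) on log2(FPKM + 1) for genes reaching FPKM 1 in 3 or more libraries, with trended empirical Bayes and Benjamini-Hochberg adjustment over all genes tested (threshold 0.05). Differences are on that log2 scale, where the pseudocount of 1 shrinks the change of low genes. The scripts were tested on simulated data. Isoform log2 ratios were taken between values of FPKM + 1 and tested by two-sided exact permutation over the libraries. TPM was each FPKM divided by the library's total FPKM. Processed pseudogene copies were sought by sequence (at least 85% identity over at least 50% of the copy). Upstream sequences are RefSeq's.

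Genes named are, per complex and direction, those with the smallest p among the called, the largest and smallest differences, the isoform pairs, genes that failed the filter, the most variable in RPM, the 2 with the smallest p by allele, those whose extreme LSL/LSL tumour stood apart, and up to 3 per related list by p. Sdhc, Cox7a2l, Ndufa4l2 and genes named because a call differed between scales were added after their values were seen. The counts include 1 gene that is not reported here and is not in the plots by gene. The genes, lists and tests were chosen with earlier results of these data known. Alternatives changed the pseudocount, filter, scaling, weights, test, pseudogene copies and libraries used.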

Additional observations from a re-analysis of the deposited data

Results flagged for a closer look

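In 4 of the 66 tested subunit genes, RPM replicate 3 stood apart from the other 8 tumours with the LSL/LSL genotype: its gap to the next tumour, divided by the range of the 9, was above Dixon's critical value of 0.493. For independent genes, chance alone gives about 1 in 20 in which any 1 of the 9 tumours stands apart. The count of 4 of 66 lies near that rate. The subunit genes varied together, however, and all 4 picked the same tumour, so the rate cannot tell whether chance gives these 4. Ndufs4 was 104.32 FPKM in that tumour, against 65.8 in the next. Ndufv2 was 255.03, against 179.5, and Ndufb3 was 117.43, against 83.6. Cox8b, the heart and muscle isoform, was 7.94, against 0.91. The ratio was taken on FPKM, and RPM replicate 3 had the highest total FPKM of the LSL/LSL tumours (829049). As TPM, it and the next LSL/LSL tumour had 126 and 101 for Ndufs4 and 308 and 266 for Ndufv2. For Ndufb3 they had 142 and 131, and for Cox8b 9.58 and 1.27. The gaps for Ndufs4, Ndufv2 and Ndufb3 were thus smaller on that scale. RPM replicate 3 was also the highest tumour for the summed cardiac and skeletal muscle markers (395 FPKM), and the part of muscle RNA in these values was not tested.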

How the results depend on the processing

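The count of subunit genes higher in RPM was 43 with all libraries and lay between 18 and 49 when single libraries were left out, with the lowest counts without RPR2 replicate 2 (18) and without RPR2 replicate 1 (22). The count lower in RPM was 0 and lay between 0 and 1 in those fits. It was 1 with TPM scaling, 1 with TPM scaling and RPR2 replicate 3 left out, and 3 with array weights, which weight libraries by their spread. The shares of all genes tested called lower in these fits were, in the same order, 22.8%, 37.4% and 41.8%. Array weights called 56 of the 66 subunit genes higher, beside 27.3% of all genes tested. Over the 8 related lists together the count higher lay between 25 and 45 when single libraries were left out. The lowest, 25, came without RPR2 replicate 2, where 14.7% of all genes tested were higher. The count lower in these lists was 7 with TPM scaling and RPR2 replicate 3 left out, where 37.4% of all genes tested were lower. By allele state no subunit gene was called under any alternative.

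Of 36 named and tested genes, 28 were called, 16 of them under all 27 alternatives. The log2 ratio of Cox6b2 to Cox6b1 lost its call with a pseudocount of 0.1 (-2.07, adjusted p by exact permutation 0.0659) or 0.01 (-2.09, adjusted p by exact permutation 0.0714), and lay between -3.07 and -1.40 when single libraries were left out. Leaving out single libraries gave -0.19 to 0.13 for Cox8b to Cox8a, and -0.20 to 0.48 for the difference of Cox6a2. Signs also changed for Cox6a2 with TPM scaling (-0.11), for Ndufs5 with median-of-ratios scaling (0.033) and with pseudogene copies added (0.64), for Sdha with TPM scaling and RPR2 replicate 3 left out (-0.18), and for Uqcrb with quantile normalization (-0.016). The cause was not tested. TPM scaling without RPR2 replicate 3 or without RPM replicate 2, the pseudogene copies and TPM for the isoform ratios were chosen after seeing the data. No paired analysis was possible because the replicate numbers were given in accession order and tie no RPM tumour to an RPR2 tumour.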
